A study of Macaca mulatta with 8 samples.

Results

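The 10 genes described here encode C-type lectin receptors of myeloid cells and the shared machinery behind them: CLEC4E, CLEC4D, CLEC6A, CLEC7A, CLEC5A, CLEC10A, CLEC12A and MRC1 as receptors, CARD9 as adaptor and SYK as kinase. They were taken by gene symbol from counts of 35432 genes, of which 23929 carried a symbol, and 10 of 10 were found. The cells were microglia, macrophages that reside in the brain, isolated from subcortical white matter of 4 adult rhesus macaques (donors R07110, R12016, R02046 and R14143) and kept in culture with serum and 10 ng/mL M-CSF (per the labels; the methods of the paper give another concentration) for 8 days. On day 7, the cells of each donor received uLPS (ultrapure LPS, an agonist of Toll-like receptor 4) at 10 µg/mL, either alone or after 1 h of pre-incubation with 5 µM MRS2578, an antagonist of the UDP receptor P2RY6, and RNA was extracted 16 h after uLPS. MRS2578 was dissolved in DMSO, and the methods state that DMSO controls were included. This gave 8 libraries, 1 for each donor and condition, and all 8 had uLPS, so a comparison with unexposed cells was not made here.

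C-type lectin receptors recognise sugars and lipids on fungi, mycobacteria and damaged cells. CLEC7A (Dectin-1, the receptor for fungal β-glucan), CLEC6A (Dectin-2, which binds mannans), CLEC4E (Mincle, which binds mycobacterial cord factor) and CLEC4D (a partner of CLEC4E) activate SYK, either directly or through the Fc receptor gamma chain encoded by FCER1G. SYK then acts through CARD9, BCL10 and MALT1 on NF-κB. CLEC5A signals through the adaptor TYROBP, CLEC12A is an inhibitory receptor, and MRC1 (CD206) and CLEC10A are endocytic receptors used as markers of macrophages and dendritic cells. Toll-like receptor ligands are known to raise CLEC4E in macrophages.

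The 2 libraries of donor R02046 carry opposite conditions in the sample labels and in the study's supplementary table of CPM values. The values of 6 of its 8 columns were proportional to those of the library with the same label, and the 2 columns of R02046 were each proportional to the library with the other label. Which of these assignments is right was not tested here. The values below follow the labels, and the fitted changes are also given with the libraries of R02046 exchanged and with R02046 left out.

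Total counts ran from 9231109 to 32790348 per library, the lowest in the library of R02046 labelled uLPS. A count of 0 allows up to 3 counts, which are 0.0915 CPM (counts scaled to library size) in the deepest and 0.325 CPM in the shallowest library. Markers of microglia and macrophages summed to 2717 to 3116 CPM with uLPS and 2601 to 3157 CPM with MRS2578 over 10 of 11 listed genes, with CSF1R at 1007 CPM or more, TMEM119 under 0.5 CPM in every library and CX3CR1 at 0.0508 to 2.21 CPM. The 6 lymphocyte markers summed to at most 0.443 CPM and FLT3, XCR1 and FCER1A of dendritic cells were at 0 in all libraries, whereas CCR7 reached 82 CPM in a single uLPS library. Sums were 87.9 to 333 CPM with uLPS and 136 to 359 CPM with MRS2578 for 6 monocyte markers (S100A8, S100A9 and S100A12 under 0.5 CPM, nearly all of it VCAN), 2.3 to 5.66 and 3.04 to 9.87 CPM for 4 granulocyte markers, and 26 to 105 and 45.1 to 106 CPM for 4 astrocyte markers. They were 238 to 407 and 222 to 304 CPM for 4 of 5 oligodendrocyte markers and 107 to 583 and 162 to 251 CPM for 6 endothelial and mural markers, of which CLDN5 and CDH5 were under 0.5 CPM. The part of other cells in the values below was not tested. P2RY6, the receptor that MRS2578 blocks, was present in every library, at 52.6 to 98.5 CPM with uLPS and 49.5 to 110 CPM with MRS2578. In these bulk samples, fewer cells of a type and less RNA per cell cannot be told apart.

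Of the 10 genes, 5 lie on chromosome 11 of the macaque genome (Mmul_10, NCBI RefSeq annotation) in 2 groups. CLEC4E (chr11:11263940-11269758, plus strand), CLEC4D (chr11:11281953-11290714, minus strand) and CLEC6A (chr11:11339495-11361755, minus strand) are neighbours among protein-coding genes, followed by CLEC4A. CLEC7A (chr11:9579997-9592761, plus strand) and CLEC12A (chr11:9728774-9747186, minus strand) lie in a second group with OLR1, CLEC1A, CLEC9A, CLEC12B and CLEC1B. CLEC5A is on chromosome 3 (chr3:168273188-168299038, minus strand), CLEC10A on chromosome 16 (chr16:6830105-6837237, minus strand), MRC1 on chromosome 9 (chr9:18959139-19056976, plus strand), and CARD9 (chr15:1879684-1891414, plus strand) and SYK (chr15:105792712-105921167, plus strand) on chromosome 15. Transcripts of the 8 receptors shared no stretch of 50 bases with those of another gene. CARD9 overlapped 350 exon bases of DNLZ on its own strand, and SYK overlapped 325 exon bases of a long non-coding RNA on the opposite strand, so a small part of the counts of CARD9 and SYK is uncertain.

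The 250 bases before the annotated start of CLEC4E and CLEC4D (RefSeq, Mmul_10) are shown, because CLEC4E had the largest fitted difference between the conditions among the 8 tested genes and CLEC4D is its neighbour and nearly without reads. Each is written 5′ to 3′ on the strand of its gene, with capitals for GGAAA, the core that NFAT proteins bind, and GAGGAA, a core bound by the myeloid factor PU.1, on either strand.
CLEC4E: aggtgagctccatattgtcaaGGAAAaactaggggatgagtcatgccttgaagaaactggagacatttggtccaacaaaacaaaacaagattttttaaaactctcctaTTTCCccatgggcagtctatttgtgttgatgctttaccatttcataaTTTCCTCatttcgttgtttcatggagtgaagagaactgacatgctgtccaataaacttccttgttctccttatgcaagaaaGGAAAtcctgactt
CLEC4D: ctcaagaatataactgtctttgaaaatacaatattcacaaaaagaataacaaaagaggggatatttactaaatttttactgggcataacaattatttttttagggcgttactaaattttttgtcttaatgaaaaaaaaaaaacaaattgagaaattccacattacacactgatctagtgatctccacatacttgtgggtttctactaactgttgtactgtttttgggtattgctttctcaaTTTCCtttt
These windows are chr11:11263690-11263939 and chr11:11290715-11290964. That of CLEC4E held 4 matches to GGAAA and 1 to GAGGAA, and that of CLEC4D 1 and 0. The window of CLEC6A, not shown, held 1 and 1. Overlaps of the letters are possible, as GAGGAAA contains both. Of 20782 windows of the same length before the starts of annotated genes, 53% held GGAAA and 21.8% GAGGAA. A match of these letters is a description of the sequence and shows no binding.

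The 10 genes spanned a wide range of transcript levels. On a scale of CPM per kilobase of annotated exon, MRC1 was highest, at 78 ± 11.7 (SD over 8 libraries), followed by CLEC5A at 37 ± 7.93, SYK at 24.1 ± 5.02, CLEC7A at 15.3 ± 3.06, CARD9 at 13.4 ± 2.35, CLEC12A at 11.7 ± 8.24 and CLEC4E at 2.91 ± 2.34. The 58.7 to 95.6 CPM per kilobase of MRC1 did not overlap the 25.2 to 48.3 of CLEC5A, whereas every later neighbour in this order overlapped the one before it. CLEC6A was left out of the order because its RefSeq model of 0.63 kilobases holds coding sequence alone. All exon lengths here are from the RefSeq annotation, whereas the counts carry Ensembl gene identifiers. The lengths over which reads were counted may thus differ, and the order is approximate. By mean CPM, MRC1 was above 97% of the 12131 genes tested and CLEC4E above 13.5%.

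CLEC4D and CLEC10A were nearly without reads. CLEC4D had 24 counts in all 8 libraries together and at most 12 in any library, and CLEC10A had 5 counts, all of them in the libraries of R12016. These 2 genes did not pass the filter on low counts, and 8 of the 10 genes were tested.

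**Figure D1:**
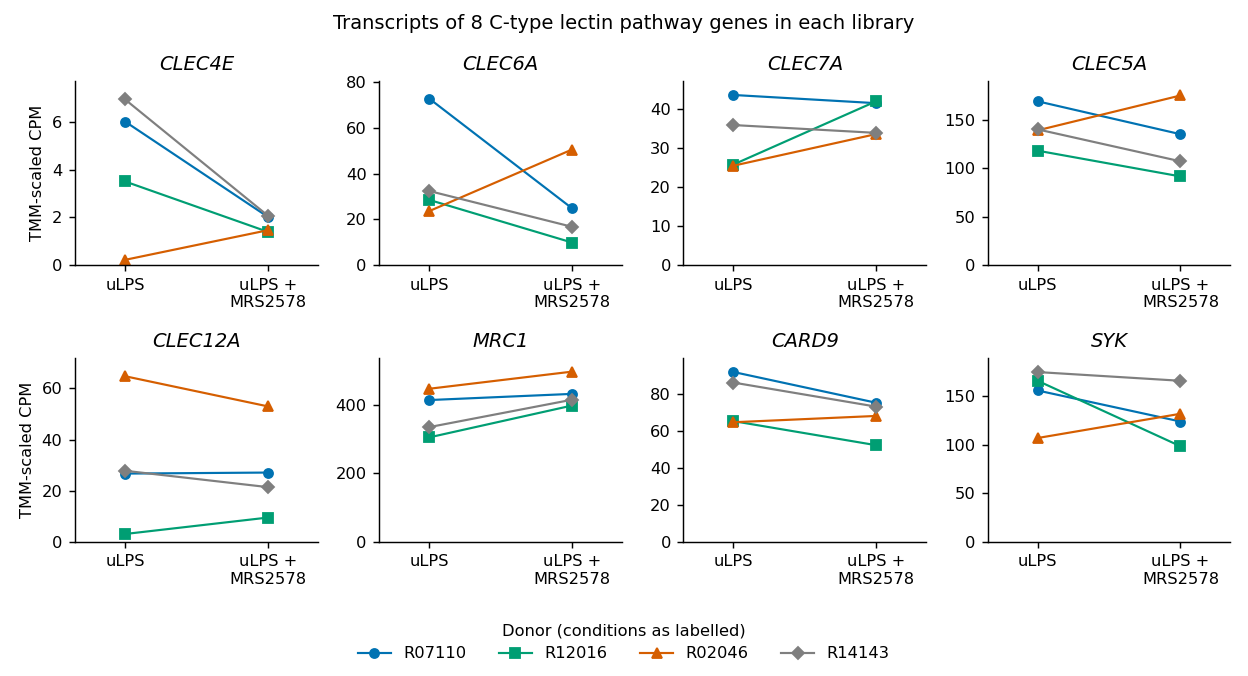
Level of each of the 8 tested genes in each library, in CPM scaled by edgeR's TMM method on linear axes from 0. Each line joins the libraries of 1 donor as labelled, with uLPS alone at the left and uLPS with MRS2578 at the right; for CLEC4E and CLEC6A the lines of R07110, R12016 and R14143 go down and that of R02046 goes up.

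CLEC4E and CLEC6A were lower with MRS2578 in 3 donors (R07110, R12016 and R14143), and higher in R02046 as labelled. CLEC4E, the receptor for cord factor, was at 6.03 CPM (uLPS) and 2.02 CPM (MRS2578) in R07110, at 3.51 and 1.39 CPM in R12016, at 0.213 and 1.46 CPM in R02046, and at 6.96 and 2.07 CPM in R14143. The highest value with MRS2578, 2.07 CPM, was below the uLPS value of every donor but R02046, and the groups overlapped through R02046 alone. The counts behind these values were 198 and 50 in R07110, 55 and 22 in R12016, 2 and 20 in R02046, and 137 and 37 in R14143.

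The ratio of CLEC4E with MRS2578 to CLEC4E with uLPS was 0.335 in R07110 (exact 95% interval of the counts 0.241 to 0.459), 0.397 in R12016 (0.23 to 0.661) and 0.297 in R14143 (0.201 to 0.43). In R02046 it was 6.85 (1.67 to 60.5) as labelled, an interval that rests on 2 counts in the library with the lowest total. These intervals cover counting error only. The intervals of R07110, R12016 and R14143 overlapped each other and lay below 1, and that of R02046 lay above 1.

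CLEC6A, the receptor for fungal mannans, showed a like order at higher counts. It was at 72.9 CPM (uLPS) and 24.8 CPM (MRS2578) in R07110, at 28.5 and 9.8 CPM in R12016, at 23.6 and 50.6 CPM in R02046, and at 32.4 and 16.7 CPM in R14143. On the log2 scale, CLEC6A differed by -1.55, -1.53, 1.10 and -0.95 in the order R07110, R12016, R02046 and R14143, and CLEC4E by -1.53, -1.27, 2.29 and -1.70. In both genes R02046 as labelled was the only donor with a higher level after MRS2578.

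The means of CLEC4E were 4.18 ± 3.02 CPM with uLPS and 1.74 ± 0.359 CPM with MRS2578 (SD, n = 4), a fitted log2 change (the log2 of the ratio of MRS2578 to uLPS) of -1.15 (SE 0.49, adjusted p = 0.878 by edgeR's quasi-likelihood test, blocked by donor, with Benjamini-Hochberg adjustment over all genes). Those of CLEC6A were 39.4 ± 22.7 and 25.5 ± 17.8 CPM, a fitted log2 change of -0.78 (SE 0.44, adjusted p = 0.878, same test). Neither passed the threshold of 0.05. As labelled, the plain mean of the 4 log2 differences within donors was -0.55 for CLEC4E and -0.73 for CLEC6A. The order of these genes thus depends on the measure. As labelled, CLEC6A was at -0.49 without R07110 and -0.52 without R12016. With the libraries of R02046 exchanged, CLEC4E fell by 1.63 on the log2 scale (SE 0.24, adjusted p = 0.0358 by the same edgeR test), a level 3.11-fold lower with MRS2578. CLEC6A then fell by 1.29 (SE 0.14, adjusted p = 0.0248, edgeR), 2.44-fold lower, with means of 46.1 ± 20.3 and 18.7 ± 6.94 CPM and no overlap between the groups (1.56% of all genes tested had every value with MRS2578 below every value with uLPS). In the 3 donors other than R02046, the fitted log2 changes were -1.58 (SE 0.23) for CLEC4E and -1.35 (SE 0.16) for CLEC6A, each with an adjusted p of 0.124 (edgeR). Both calls were thus made with R02046 exchanged, and neither as labelled nor without that donor.

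Leaving out R07110 or R12016 also ended these calls in the exchanged assignment. The adjusted p values of CLEC4E and CLEC6A (edgeR) were 0.303 and 0.251 without R07110 and 0.127 and 0.0765 without R12016, and they were 0.0245 and 0.00312 without R14143. The fold changes in these fits stayed between -1.71 and -1.58 for CLEC4E and between -1.40 and -1.19 for CLEC6A.

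CLEC4D, the partner of CLEC4E, did not pass the filter on low counts. It had 12 counts with uLPS and 3 with MRS2578 in R07110, 2 and 0 in R12016, 0 and 1 in R02046, and 4 and 2 in R14143. The ratio of MRS2578 to uLPS was 0.332 in R07110 (exact 95% interval 0.0601 to 1.23) and 0.55 in R14143 (0.0498 to 3.84), and both intervals included 1. Without the filter, its fitted log2 change was -1.26 (SE 0.86, adjusted p = 0.879) by edgeR and -1.15 (SE 1.63, adjusted p = 1) by DESeq2. A difference of CLEC4D was not detectable at this depth.

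CLEC4A, an inhibitory lectin receptor and the next protein-coding gene after CLEC6A on chromosome 11, was the most abundant of this group by CPM. It was at 357 CPM (uLPS) and 212 CPM (MRS2578) in R07110, at 247 and 115 CPM in R12016, at 251 and 308 CPM in R02046, and at 286 and 234 CPM in R14143. The order of conditions was thus that of CLEC4E and CLEC6A in each donor. Its fitted log2 change was -0.46 (SE 0.22, adjusted p = 0.878, edgeR) as labelled, -0.61 (SE 0.14, adjusted p = 0.104) with R02046 exchanged and -0.71 (SE 0.17, adjusted p = 0.191) without R02046.

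**Figure D2:**
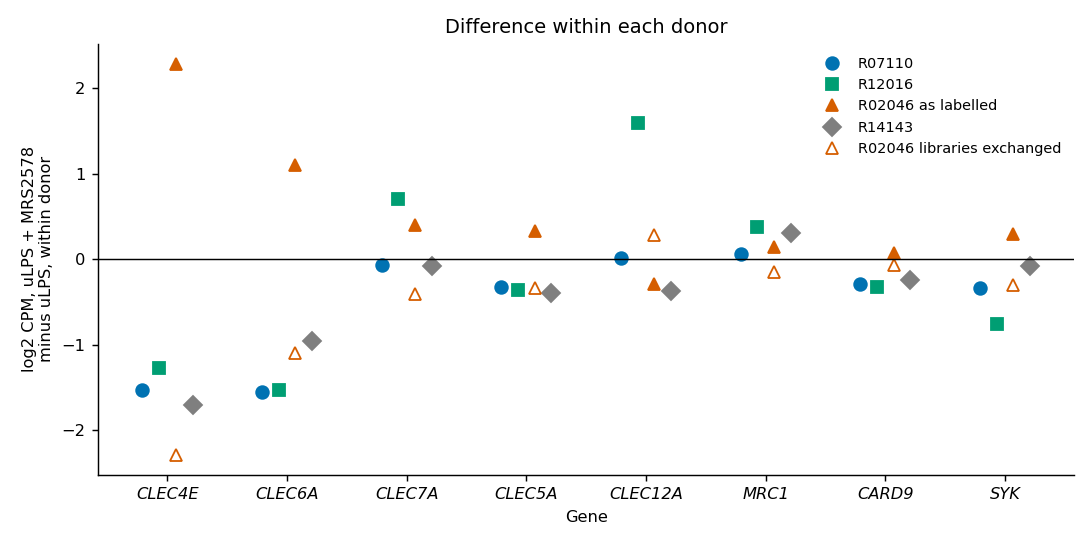
Difference in log2 CPM (prior count 2) between uLPS with MRS2578 and uLPS alone within each donor, for the 8 tested genes. Filled symbols follow the labels and the open triangles give R02046 with its libraries exchanged; CLEC4E and CLEC6A lie between -1.70 and -0.95 in R07110, R12016 and R14143 and at 2.29 and 1.10 in R02046 as labelled.

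The receptors CLEC7A and CLEC5A differed less between the conditions. CLEC7A, the β-glucan receptor, was at 43.5 CPM (uLPS) and 41.4 CPM (MRS2578) in R07110, at 25.7 and 41.9 CPM in R12016, at 25.4 and 33.5 CPM in R02046, and at 35.8 and 33.8 CPM in R14143. It was higher with MRS2578 in R12016 and, as labelled, in R02046, and within 0.08 on the log2 scale in the other donors. Its fitted log2 change was 0.23 (SE 0.16, adjusted p = 0.883, edgeR) as labelled, 0.04 (SE 0.17, adjusted p = 0.93) with R02046 exchanged and 0.18 (SE 0.18, adjusted p = 0.735) without R02046. No assignment gave CLEC7A a decrease like that of CLEC4E and CLEC6A, though the difference between the genes was not tested.

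CLEC5A, which signals through TYROBP, was at 169 CPM (uLPS) and 135 CPM (MRS2578) in R07110, at 118 and 91.4 CPM in R12016, at 139 and 175 CPM in R02046, and at 140 and 107 CPM in R14143. The log2 differences in R07110, R12016 and R14143 lay between -0.39 and -0.32, and that of R02046 was 0.33 as labelled. The groups overlapped, with means of 141 ± 21 and 127 ± 36.9 CPM (SD, n = 4). The fitted log2 change was -0.19 (SE 0.14, adjusted p = 0.897, edgeR) as labelled and -0.35 (SE 0.08, adjusted p = 0.0932) with R02046 exchanged, and -0.36 (SE 0.09, adjusted p = 0.211) without R02046.

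MRC1, the mannose receptor, was the only tested gene of the 10 with 1 direction in all 4 donors as labelled. It was at 414 CPM (uLPS) and 432 CPM (MRS2578) in R07110, at 305 and 398 CPM in R12016, at 447 and 497 CPM in R02046, and at 335 and 415 CPM in R14143. The 4 values with MRS2578 were each above that of the same donor with uLPS, but the groups overlapped, at 375 ± 66.2 and 436 ± 43 CPM (SD, n = 4). Of all genes tested, 12.9% had 1 direction in the 4 donors. With R02046 exchanged, MRC1 differed by -0.15 on the log2 scale in that donor, so the direction was no longer shared. The fitted log2 change of MRC1 was 0.23 (SE 0.10, adjusted p = 0.878, edgeR) as labelled, 0.15 (SE 0.11, adjusted p = 0.544) with R02046 exchanged and 0.25 (SE 0.11, adjusted p = 0.401) without R02046. CLEC10A, the other endocytic receptor, had 1 count with uLPS and 4 with MRS2578 in R12016 (ratio 3.97, exact 95% interval 0.392 to 195) and 0 in the other donors, which allows up to 3 counts in each of these libraries.

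CLEC12A, the inhibitory receptor, differed more between donors than between conditions. It was at 26.7 CPM (uLPS) and 27.1 CPM (MRS2578) in R07110, at 3.06 and 9.49 CPM in R12016, at 64.8 and 53 CPM in R02046, and at 27.8 and 21.4 CPM in R14143. R02046 was highest and R12016 lowest under both conditions, with donor means of 58.9 and 6.28 CPM, 9.38-fold apart. The same ratio of highest to lowest donor mean was 5.39 for CLEC4E and 2.55 for CLEC6A and ran from 1.34 to 1.51 for the 5 other tested genes. Its donor means had an SD of 1.43 on the log2 scale, and its 4 differences between conditions an SD of 0.92 around a mean of 0.24. The fitted log2 change was 0.15 (SE 0.31, adjusted p = 0.955, edgeR) as labelled, 0.26 (SE 0.25, adjusted p = 0.669) with R02046 exchanged and 0.27 (SE 0.35, adjusted p = 0.791) without R02046, and it turned to -0.21 as labelled without R12016.

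Downstream of these receptors, SYK and CARD9 were lower with MRS2578 in the same 3 donors. SYK, the kinase shared by the activating receptors, was at 156 CPM (uLPS) and 124 CPM (MRS2578) in R07110, at 166 and 98.5 CPM in R12016, at 107 and 132 CPM in R02046, and at 175 and 166 CPM in R14143. CARD9, the adaptor between SYK and NF-κB, was at 91.6 and 75 CPM in R07110, at 65.1 and 52.1 CPM in R12016, at 64.5 and 67.9 CPM in R02046, and at 85.9 and 72.9 CPM in R14143. The SYK difference was largest in R12016 (-0.75 on the log2 scale). In R14143 it was only -0.08, and -0.01 with scaling by library size alone. The differences of CARD9 lay between -0.32 and -0.24 in these 3 donors. The fitted log2 changes were -0.22 (SE 0.17, adjusted p = 0.901, edgeR) for SYK and -0.19 (SE 0.10, adjusted p = 0.878) for CARD9. They were -0.37 (SE 0.12, adjusted p = 0.18) and -0.23 (SE 0.09, adjusted p = 0.242) with R02046 exchanged, and -0.39 (SE 0.15, adjusted p = 0.337) and -0.28 (SE 0.09, adjusted p = 0.296) without R02046. As labelled, SYK was at -0.03 (SE 0.15) without R12016.

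**Figure D3:**
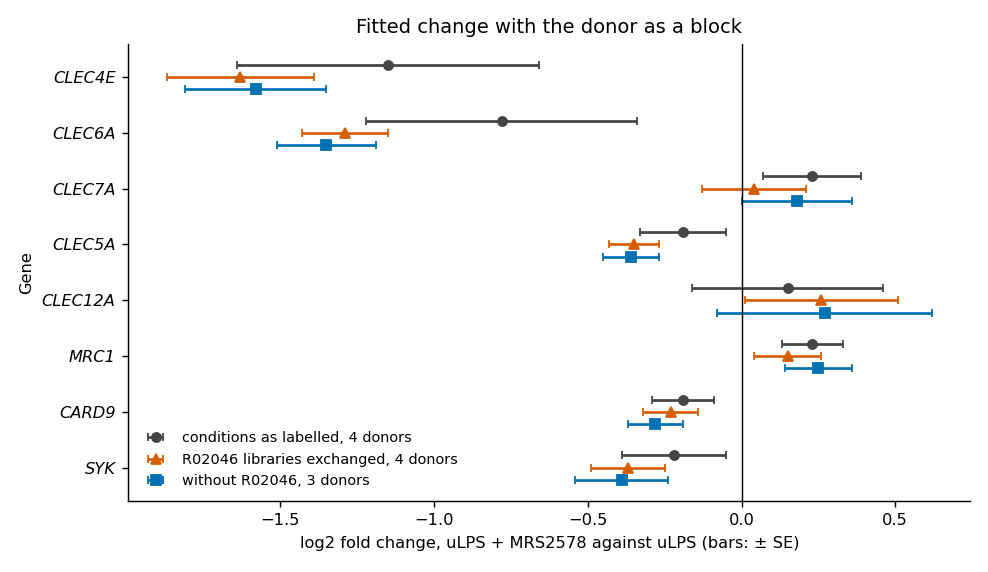
Fitted log2 fold change (uLPS with MRS2578 against uLPS, donor as a block) of the 8 tested genes, with bars of ± 1 SE, for the conditions as labelled, for R02046 exchanged and for the 3 donors other than R02046. CLEC4E and CLEC6A lie furthest from 0 in each, at -1.15 and -0.78 as labelled, with the widest bars there.

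As labelled, 0 of the 8 tested genes passed an adjusted p of 0.05 in edgeR's quasi-likelihood test, as did 0% of all 12131 genes, and 0 of the 8 had an unadjusted p under 0.05 against 5.14% of all genes. DESeq2's Wald test and edgeR's likelihood ratio test also called 0 of them. The fitted values were below 0 for 5 of the 8 (52.1% of all genes), with a median log2 change of -0.19 against -0.01 over all genes. Counted by sign alone, CLEC4E, CLEC6A, CLEC5A, CARD9 and SYK were lower in R07110, R12016 and R14143. These are 5 of the 8 against a background of 19.8% of genes, and SYK in R14143 was at -0.08.

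With R02046 exchanged, 2 of the 8 were called, CLEC4E and CLEC6A, both lower, against 0.618% of all genes (0.519% lower). An unadjusted p under 0.05 was reached by 5 of the 8, all lower (background 9.59% lower), and the same 5 genes were lower in all 4 donors (background 13.2%). Of the 8, 5 were below 0 (49.8% of all genes), with a median of -0.29. CLEC6A was the 1 gene whose groups did not overlap, and as labelled there was none (background 0.412%). Without R02046, 0 of the 8 and 0% of 12295 genes were called by edgeR, 5 of the 8 had an unadjusted p under 0.05 (13.6% of all genes), all lower (7.86%), and 5 were below 0 (50.5%), with a median of -0.32.

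The rest of the pathway was taken from 4 lists, in which edgeR called 0 genes as labelled, with R02046 exchanged or without R02046. Of 16 other C-type lectin genes, 14 were in the files and 5 were tested, of which 3 were below and 2 above 0 as labelled, with a median of -0.07. The split was the same with R02046 exchanged, with a median of -0.43, and without R02046 5 of 6 tested were below 0, with a median of -0.44. CLEC4C and CLEC4G had no count in any library, and CD209 (DC-SIGN) had 5 counts in all. OLR1, the scavenger receptor LOX-1 beside CLEC7A, was at 37.4 and 34 CPM in R07110, 111 and 94.2 CPM in R12016, 29.3 and 52.6 CPM in R02046 and 55.7 and 19 CPM in R14143, with uLPS given first. Its fitted log2 change was -0.27 (SE 0.34, adjusted p = 0.931, edgeR) as labelled, -0.67 (SE 0.22, adjusted p = 0.192) with R02046 exchanged and -0.62 (SE 0.28, adjusted p = 0.417) without R02046. MRC2, a collagen receptor related to MRC1, had means of 133 ± 19.9 and 146 ± 26.2 CPM and a fitted log2 change of 0.13 (SE 0.11, adjusted p = 0.901, edgeR) as labelled, 0.18 (SE 0.09) exchanged and 0.21 (SE 0.11) without R02046.

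Among 16 adaptors and kinases, 10 were below and 6 above 0 as labelled, with a median of -0.06. With R02046 exchanged and without R02046, 11 were below and 5 above 0, with medians of -0.10 and -0.08. FCER1G, the chain through which CLEC4E and CLEC6A signal, was at 275 ± 26.9 and 236 ± 31.3 CPM (fitted log2 change -0.23, SE 0.09, adjusted p = 0.878, edgeR), and it was lower with MRS2578 in each of the 4 donors as labelled, by 0.07 to 0.34. With R02046 exchanged that donor went the other way and FCER1G was at -0.12 (SE 0.11, adjusted p = 0.629), and without R02046 it was at -0.23 (SE 0.10, adjusted p = 0.4). The Src family kinase LYN, at 1082 ± 110 and 992 ± 164 CPM, had a fitted log2 change of -0.13 (SE 0.16), and the kinase PRKCD, which phosphorylates CARD9, one of 0.03 (SE 0.12). LYN was at -0.31 (SE 0.10, adjusted p = 0.18, edgeR) with R02046 exchanged and -0.30 (SE 0.13, adjusted p = 0.381) without R02046, and PRKCD turned to -0.07 (SE 0.10) and -0.03 (SE 0.13). MALT1, the protease of the CARD9 complex, was at 23.8 ± 7.65 and 28.2 ± 7.37 CPM with a fitted log2 change of 0.26 (SE 0.16, adjusted p = 0.878, edgeR) as labelled. With R02046 exchanged, MALT1 was at 26.4 ± 10.2 and 25.6 ± 4.68 CPM and the change was 0.02 (SE 0.18, adjusted p = 0.968), and without R02046 it was 0.18 (SE 0.18).

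Of the NF-κB and NFAT effectors, 12 of 13 were in the files and 11 were tested, 7 below and 4 above 0 as labelled, with a median of -0.02. The split was the same with R02046 exchanged (median -0.11), and without R02046 it was 7 below and 5 above 0 (median -0.06). NFKB1 and NFKB2 were at 382 ± 113 and 129 ± 43.3 CPM with uLPS and at 300 ± 22.3 and 101 ± 10.3 CPM with MRS2578. Their fitted log2 changes were -0.30 (SE 0.20) and -0.29 (SE 0.19) as labelled, and -0.52 (SE 0.10, adjusted p = 0.0628) and -0.50 (SE 0.09, adjusted p = 0.0629) with R02046 exchanged (edgeR). Without R02046 they were -0.55 (SE 0.12) and -0.52 (SE 0.11), each with an adjusted p of 0.18. MAP3K14, the kinase of the alternative NF-κB pathway, was higher with MRS2578 in all 4 donors as labelled, at 9.34 ± 3.15 and 15.8 ± 4.38 CPM, with a fitted log2 change of 0.77 (SE 0.24, adjusted p = 0.878). With R02046 exchanged that donor went the other way and MAP3K14 was at 0.66 (SE 0.26, adjusted p = 0.265, edgeR). Without R02046 it was at 0.92 (SE 0.25, adjusted p = 0.23). The calcineurin subunit PPP3CA was at 83.5 ± 6.97 and 93.6 ± 4.72 CPM, with a fitted log2 change of 0.17 (SE 0.09, adjusted p = 0.878) as labelled, 0.11 (SE 0.10) exchanged and 0.19 (SE 0.10) without R02046.

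The 8 inhibitors were 3 below and 5 above 0 as labelled, with a median of 0.02. The balance turned to 6 below and 2 above 0 with R02046 exchanged (median -0.11) and to 5 below and 3 above 0 without R02046 (median -0.08). TNFAIP3 (A20), an inhibitor of NF-κB signaling, was at 376 ± 145 and 288 ± 35 CPM, with a fitted log2 change of -0.31 (SE 0.20) as labelled, -0.55 (SE 0.10, adjusted p = 0.0566, edgeR) with R02046 exchanged and -0.57 (SE 0.12, adjusted p = 0.166) without R02046. The phosphatase PTPN6 (SHP-1) had a fitted log2 change of 0.03 (SE 0.15) and the ubiquitin ligase CBL one of 0.32 (SE 0.16, adjusted p = 0.878) as labelled. PTPN6 turned to -0.15 (SE 0.13) with R02046 exchanged and -0.08 (SE 0.16) without R02046, and CBL was at 0.01 (SE 0.19) and 0.22 (SE 0.17). With R02046 exchanged, an unadjusted p under 0.05 was reached by 2 of 5 other lectin genes, 5 of 16 adaptors and kinases, 7 of 11 effectors and 1 of 8 inhibitors, against 16.4% of all genes. In the same order, 2, 5, 5 and 1 of these were lower with MRS2578, against 9.59% of all genes. The remaining effectors were higher.

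**Figure D4:**
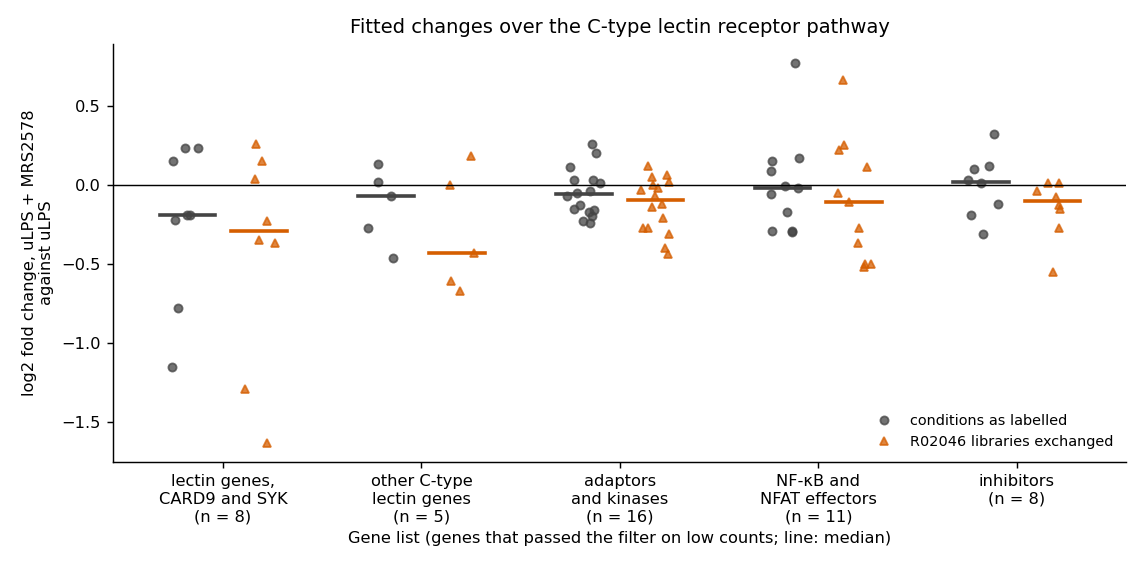
Fitted log2 fold change (uLPS with MRS2578 against uLPS) of each tested gene of the 10 and of 4 lists of the C-type lectin receptor pathway, with the median of each list as a line, as labelled (circles) and with R02046 exchanged (triangles). CLEC4E and CLEC6A are the lowest points under both assignments, and the medians of the 4 lists as labelled lie between -0.07 and 0.02.

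Over the 8 libraries, the genes whose log2 CPM followed that of CLEC4E most closely among 7987 genes with a mean of at least 10 CPM were KANSL3 and CRTC2 (Pearson's r 0.97) and TBC1D20, PYGO2 and CEP120 (0.96). The coefficient was 0.76 for SYK, 0.63 for CARD9, 0.40 for CLEC6A and -0.55 for MRC1. The 8 libraries share 4 donors, and the library of R02046 with 2 CLEC4E counts lies far below the others, so these coefficients are a description.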

How the data were processed

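The authors deposited whole-number counts of reads per gene for each library, without normalization. Libraries were made from oligo(dT)-selected mRNA with a directional kit. The submitters' processing notes name Trimmomatic 0.30, TopHat2 2.0.14, SAMtools 1.3, HTSeq 0.6.1p1 and the build Mmul_10, whereas the paper names fastp, STAR and HTSeq for unique reads in exons, and the strand setting and annotation release are not given in the sources used here. Conditions and donors came from the labels. No library was a duplicate of another (chi-square per degree of freedom at least 19.56).

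Counts were analysed in R 4.3.3 with edgeR 4.0.16: filterByExpr on the conditions (minimum count 10), TMM scaling, and the quasi-likelihood F-test, blocked by donor, with Benjamini-Hochberg adjustment over all 12131 genes and a threshold of 0.05. SE is implied by the F statistic. CPM are TMM-scaled and log2 CPM have a prior count of 2. The libraries of a donor come from the same animal, and their deviations from the condition means correlated at 0.458 to 0.602. The test was checked on simulated counts that held no differences between donors in level or response. Its behaviour under such differences was not tested. The block takes up differences in level between the animals. The quasi-likelihood p-values weigh the fitted difference between the conditions against the variation that the block leaves. With no donor left out, they cover these 4 animals only.

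The alternatives were DESeq2 1.42.0, edgeR's likelihood ratio test, other scalings and filters, no block, each donor left out, and R02046 exchanged. The earlier quasi-likelihood estimation of edgeR was added after seeing the data. The 10 genes, the lists and the exchange were chosen with earlier results of these data known. Named are the 10 genes, from each list the 2 of highest mean CPM and the 2 of smallest p as labelled, and the 5 genes most correlated with CLEC4E. OLR1, CLEC4C, CLEC4G and CD209 were named after their values were seen. CD302, LY75 and PPP3R1 of the lists were not analysed here. Motifs were searched with overlaps allowed on both strands. Intervals of count ratios are exact (Clopper-Pearson).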

Additional observations from a re-analysis of the deposited data

Results flagged for a closer look

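In 24 sets of 4 values (the 8 tested genes within each condition, and their 4 differences within donors), the highest or lowest value was compared with its neighbour by Dixon's ratio and its 95% critical value for 4 samples. The differences within donors of CLEC4E (ratio 0.893) and of CLEC5A (ratio 0.902) exceeded it. In both, R02046 as labelled was the donor apart, at 2.29 against -1.70 to -1.27 for CLEC4E and at 0.33 against -0.39 to -0.32 for CLEC5A. Chance alone puts about 1 in 20 such sets past this value. Exchanging the libraries of R02046 only turns the sign of its values, to -2.29 and -0.33. The sign then shared by the 4 donors follows by arithmetic and is no test of the exchange.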

How the results depend on the processing

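As labelled, 0 of the 8 tested genes were called under every alternative run, and over all genes 0 were called except for 5 by edgeR's likelihood ratio test. With R02046 exchanged, 75 genes were called, 2 of them CLEC4E and CLEC6A, and with the earlier quasi-likelihood estimation 39 and 1 (CLEC6A, adjusted p = 0.0413, with CLEC4E at 0.0592, edgeR). Leaving out 1 donor gave 0 to 918 calls over all genes and 0 to 4 among the 8 genes: as labelled always 0, and with R02046 exchanged 0 and 0 without R07110, 5 and 0 without R12016, and 918 and 4 (CLEC4E, CLEC6A, CLEC5A and SYK) without R14143.

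Without the replicate block that pairs the libraries of a donor, 0 genes were called under either assignment. As labelled, CLEC12A turned to -0.13 without the block and ran from -0.21 (without R12016) to 0.37 (without R14143) with 1 donor left out. With R02046 exchanged and without R12016, CLEC12A was at -0.01 and CLEC7A at -0.17; the cause was not tested. CLEC4E, CLEC6A, CLEC5A, CARD9 and SYK had a log2 fold change below 0, and MRC1 one above 0, in each fit that tested them. CLEC4E could not be tested with at least 10 counts in every library. Its fold change ranged from -1.58 to -0.78 as labelled and from -1.71 to -1.57 exchanged, with adjusted p of 0.124 to 1 as labelled (edgeR and DESeq2) and no lower than 0.0245 exchanged (edgeR), where 2 of 6 fits called it. A prior count of 0.25 and scaling by library size alone moved 0 of the 32 log2 differences within donors by more than 1 SD. The SD is that of the 4 differences of the gene, with R02046 as labelled. It was 1.90 for CLEC4E and 1.25 for CLEC6A, so this rule could hardly flag a shift in these genes. With the prior count of 0.25, the CLEC4E difference in R02046 went from 2.29 to 2.70. Depth limits CLEC4D and CLEC10A in every library, and CLEC4E in R02046.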
